A study of Mus musculus with 6 samples.

Results

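Genes of secreted or surface factors by which astrocytes organize or clear synapses were followed in the mouse cerebral cortex at postnatal day 7. They were taken by symbol from the deposited tables: Sparc, Sparcl1, Thbs1, Thbs2, Thbs4, Gpc4, Gpc5, Gpc6, Megf10 and Mertk. All 10 were found among 35857 genes. The libraries were polyadenylated RNA of cortices of C57BL/6 mice. Of these, 3 were from Qk knockout brains (genotype label Qk-/-, called Qk_KO) and 3 from control brains (genotype label wild type, called Cont). The RNA was of bulk tissue, so the value of any member can hold RNA of other cells than astrocytes. The RNA-binding protein made from Qk, quaking, is found in neural progenitors and glia. Going by the series title, the study asked about the part of quaking in the step by which neural stem cells leave neurogenesis for gliogenesis. The sources used here do not give the deleted exons or the cells in which they were deleted.

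Young astrocytes instruct synapse formation through secreted and surface proteins while cortical neurons are wiring up. Thrombospondins act on neurons through the calcium channel subunit alpha2delta-1, hevin (Sparcl1) bridges neurexin and neuroligin across the synaptic cleft and is antagonized by SPARC, and the glypicans Gpc4 and Gpc6 draw AMPA receptors to the synapse. The engulfment receptors Megf10 and Mertk act in the other direction, since astrocytes use them to take up synapses.

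Quaking binds RNA at the letters ACUAAC or ACUAAU, so the members' 3' UTRs were searched for ACTAAC or ACTAAT on the transcript strand, as a description of where its core motif lies in these genes. The longest coding-transcript 3' UTR of each gene in GENCODE M21 (GRCm38) was used. Of 10 members, 3 held the motif: Sparc with 1 site, Thbs2 with 1 and Megf10 with 2. Of the 13792 tested genes with an annotated 3' UTR, 34.6% held it. The 3' UTRs searched were 1085 bases long in Sparc, 2013 in Thbs2 and 3412 in Megf10, against a median of 1209 bases over these genes. A half-site, TAAC or TAAT apart from the motif, lay within 20 bases of 0 of the 4 sites. The sites of Sparc (chr11:55394657-55394686, minus strand) and Thbs2 (chr17:14666910-14666939, minus strand) are shown 5′ to 3′ with 12 bases on each side, to show the letters around the motif in a member of each secreted family that holds it; capitals mark the motif. The sites of Megf10 are not shown here.
Sparc: ttgaaaccttctACTAATcaagagaaactt
Thbs2: tttgaaacattaACTAATtagaacatagga
No match was found in the 3' UTRs of Sparcl1, Thbs1, Thbs4, Gpc4, Gpc5, Gpc6 and Mertk, which says only that these letters are not in those windows. Of the 6 members with a RefSeq promoter window of 300 bases (GRCm38.p6), 0 held the motif on either strand, beside 11.6% of all 32851 windows. With 6 windows a count of 0 does not set the members apart from that share. Quaking binds RNA, so the promoter search describes letters in DNA and not binding.

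Expression was given as TPM, an abundance per transcript length with the same total in every library, so levels of different genes can be set side by side. Depth is unknown, since TPM does not keep it. Between 18971 and 19710 genes per library were above 0. Qk was at 14.6, 15.2 and 15.4 TPM in Qk_KO replicates 1, 2 and 3. It was at 36.5, 43.2 and 41.3 TPM in Cont replicates 1, 2 and 3 (limma log2 change -1.36, adjusted p = 0.000855). The ratio of means was 0.373, so Qk RNA was lower in the libraries labelled Qk-/- but not absent. Which cells hold the remaining RNA, and whether it makes protein, was not tested. Neuron markers were read as a check for neural tissue. They cannot tell cortex from other brain regions, since no other region was measured. The summed TPM of 12 of them, Tubb3, Snap25 and Slc17a7 included, was 7096 to 7635 in Qk_KO and 6702 to 7569 in Cont libraries. No marker of the 7 cell type lists was at 0 in any library.

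None of the members passed the test between Qk_KO and Cont cortex, in either direction. Genes averaging 1 TPM or more were tested with limma on log2(TPM + 1), with p-values adjusted by Benjamini-Hochberg over all 14994 genes and a threshold of 0.05. Thbs4 was below the filter and 9 members were tested. Of these, 0 passed, where 0.387% of all tested genes did (58 genes; 0.287% lower and 0.1% higher in Qk_KO). At an unadjusted p under 0.05 there were 2 members, Sparc and Gpc4, where 8.72% of all genes lay there. The 3 Qk_KO values did not overlap the 3 Cont values in 3 of the 9 tested members, Sparc and Thbs1 being lower and Gpc4 higher in Qk_KO, where 14.2% of all tested genes did not overlap (8.98% lower and 5.2% higher). The median log2 change of the 9 was -0.11, beside -0.03 over all tested genes. All log2 changes are Qk_KO minus Cont on the log2(TPM + 1) scale, on which differences of genes at a few TPM come out smaller than their ratios. In bulk cortex, fewer cells of a type and less RNA per cell cannot be told apart.

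**Figure D1:**
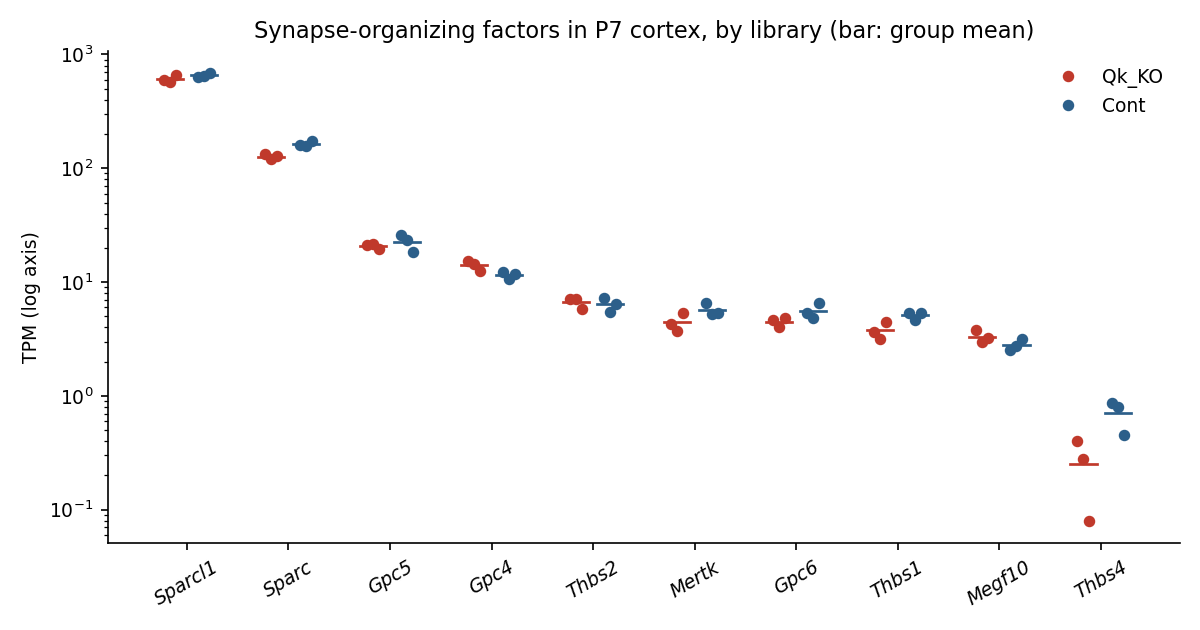
TPM (log axis) of the 10 members in each library, Qk_KO in red on the left and Cont in blue on the right of each pair; points are libraries and bars group means. Sparcl1 lies highest in every library and Thbs4 lowest, and the groups do not overlap for Sparc, Gpc4, Thbs1 and Thbs4.

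The members spanned a wide range of levels. Averaged over the 6 libraries, Sparcl1 stood at 631 TPM, above 98.5% of tested genes, and Sparc at 145 TPM, above 91.6%. Gpc5 (21.7 TPM) and Gpc4 (12.8 TPM) came next. The order Sparcl1, Sparc, Gpc5, Gpc4, Thbs2 held in 6 of 6 libraries, and the ranges of neighbours in that order did not overlap. Below these, Thbs2 (6.54 TPM), Mertk (5.09 TPM), Gpc6 (5.04 TPM), Thbs1 (4.46 TPM) and Megf10 (3.06 TPM) overlapped with their neighbours in the order, and Mertk was above Gpc6 in 3 of 6 libraries. Thbs4 averaged 0.48 TPM and lay below all the others in every library.

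Sparcl1 encodes hevin, the synaptogenic member of the SPARC pair (minus strand of chromosome 5, 104079111 to 104113733, GRCm38). It was at 595, 569 and 654 TPM in Qk_KO replicates 1, 2 and 3, against 628, 653 and 686 TPM in Cont replicates 1, 2 and 3. The groups overlapped, with Qk_KO replicate 3 above Cont replicates 1 and 2. The means were 606 ± 43.4 TPM in Qk_KO and 655 ± 29.1 TPM in Cont (SD, n = 3 each). The log2 change was -0.11 with a 95% interval of -0.29 to 0.06 (limma, adjusted p = 0.743), and it was -0.071 without Qk_KO replicate 2.

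Sparc encodes the matricellular glycoprotein that antagonizes hevin at synapses (minus strand of chromosome 11, 55394500 to 55423183). It was at 132, 120 and 128 TPM in Qk_KO replicates 1, 2 and 3, against 159, 156 and 174 TPM in Cont replicates 1, 2 and 3. Every Qk_KO library lay below every Cont library, and the means were 127 ± 6.17 TPM in Qk_KO and 163 ± 9.52 TPM in Cont (SD, n = 3 each), a ratio of 0.776. The log2 change was -0.36 (SE 0.0743, 95% interval -0.53 to -0.19). It had the smallest p of the members, rank 117 of all tested genes, and its limma adjusted p was 0.119, short of the threshold. Its adjusted p was 0.102 to 0.385 over 13 other settings of the analysis, and Sparc lay lower in Qk_KO in each of them.

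Because Sparc and Sparcl1 act against each other at synapses, their ratio was also taken within each library, after their values were seen. Sparcl1 stood at 4.5, 4.74 and 5.12 times the TPM of Sparc in Qk_KO replicates 1, 2 and 3, against 3.95, 4.17 and 3.94 times in Cont replicates 1, 2 and 3. The ratio was higher in every Qk_KO library than in any Cont library, with means of 4.79 ± 0.311 in Qk_KO and 4.02 ± 0.131 in Cont (SD, n = 3 each). An exact two-sided permutation test gave p = 0.1, the smallest that 3 libraries against 3 allow. The ratio restates the values of Sparc and Sparcl1 given above and is not separate support for a difference.

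Sparc is made in the brain by several cell types, among them astrocytes, microglia and vessel cells. The summed marker TPM of some of these was also lower in every Qk_KO than in every Cont library. The summed TPM of the 18 astrocyte markers was 1211 to 1255 in Qk_KO and 1605 to 1682 in Cont libraries. In that list 6 of 18 fell, among them the glutamate transporter Slc1a3, Mlc1, S100b and Acsbg1, and 0 rose. Of all tested genes 0.287% fell and 0.1% rose at the same threshold. Most of the astrocyte list lay lower in Qk_KO. Of the 18 log2 changes 16 were below 0, where 57.0% of all tested genes were, and the median was -0.51. The groups did not overlap for 14 lower and 1 higher, where 8.98% and 5.2% of all tested genes lay so. The log2 changes ran from -1.29 to 0.47. Aldh1l1, an enzyme of folate metabolism and the top of that range, was at 78.7, 80.9 and 71.5 TPM in Qk_KO replicates 1, 2 and 3, against 50.4, 52.3 and 63.8 TPM in Cont replicates 1, 2 and 3, and the water channel Aqp4 overlapped between groups (46.4 ± 1.86 TPM in Qk_KO and 49.1 ± 3.29 TPM in Cont, SD, n = 3 each). Neither passed, and both were picked after their values were seen. The 10 pericyte and smooth muscle markers summed to 227 to 262 TPM in Qk_KO and 279 to 300 TPM in Cont. Most of that sum was Vtn alone, at 138 ± 8.44 TPM in Qk_KO and 172 ± 8.56 TPM in Cont (SD, n = 3 each). The 10 meningeal fibroblast markers summed to 380 to 448 TPM in Qk_KO and 449 to 536 TPM in Cont. In either list 0 genes passed the threshold. The sums overlapped between groups for the 10 endothelial markers (425 to 488 TPM in Qk_KO, 449 to 581 TPM in Cont) and for the 10 microglia markers (218 to 246 TPM in Qk_KO, 222.2 to 228.0 TPM in Cont). The 12 oligodendrocyte lineage markers summed to 497 to 528 TPM in Qk_KO and 556 to 591 TPM in Cont. Of the 12, 4 fell (Mbp, Gpr17, Bcas1 and Cnp) and Olig2 rose, beside 0.287% and 0.1% of all tested genes. The part of these cell types in the values of Sparc was not tested.

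Among all tested genes, those whose log2(TPM + 1) followed that of Sparc most closely over the 6 libraries were Adamtsl2 (Pearson r = 0.997), Emp2 (r = 0.997) and Fgfr3 (r = 0.996). Emp2 was at 19.0, 14.4 and 16.9 TPM in Qk_KO replicates 1, 2 and 3, against 31.6, 28.7 and 36.4 TPM in Cont replicates 1, 2 and 3, and fell at the threshold (log2 change -0.90, limma adjusted p = 0.0235). Fgfr3, a growth factor receptor of astrocytes, fell as well (log2 change -0.67, adjusted p = 0.0244), and Adamtsl2 did not pass (log2 change -0.59, adjusted p = 0.191). These are the highest correlations out of all tested genes over 6 points that share their libraries, and they are given as a description. Sparc did not overlap between the groups, so each r holds the group difference. It does not show that the genes vary together apart from that difference. Fgfr3 is also in the astrocyte marker list.

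The 3 thrombospondins among the members were low in these libraries, while their paralog Thbs3 averaged 36.3 ± 5.78 TPM in Qk_KO and 32.7 ± 2.77 TPM in Cont (SD, n = 3 each; limma adjusted p = 0.815; picked after its values were seen). Thbs1, which induces structurally normal but functionally silent synapses in culture (plus strand of chromosome 2, 118111876 to 118127133), was at 3.68, 3.19 and 4.46 TPM in Qk_KO replicates 1, 2 and 3, against 5.4, 4.65 and 5.36 TPM in Cont replicates 1, 2 and 3. All 3 Qk_KO values lay below all 3 Cont values, with Qk_KO replicate 3 and Cont replicate 2 nearly touching. The log2 change was -0.37 with a 95% interval of -0.74 to 0.0012 (limma, adjusted p = 0.576). An annotated gene on the other strand, Gm29233, overlaps exons of Thbs1, and whether the authors' counting used strand is not given, so reads of these cannot be told apart.

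Thbs2, its close paralog with the 3' UTR site shown above, was at 7.16, 7.09 and 5.84 TPM in Qk_KO replicates 1, 2 and 3, against 7.21, 5.49 and 6.45 TPM in Cont replicates 1, 2 and 3. The groups overlapped throughout (log2 change 0.06, 95% interval -0.28 to 0.40; limma, adjusted p = 0.948), and the sign turned without Cont replicate 2 (-0.028). Thbs4, a member of the pentameric branch of the family, was at 0.4, 0.28 and 0.08 TPM in Qk_KO replicates 1, 2 and 3, against 0.87, 0.8 and 0.45 TPM in Cont replicates 1, 2 and 3. Its groups did not overlap but came within 0.05 TPM of each other (exact two-sided permutation test, p = 0.1, the smallest possible). With no filter on low values it entered the limma fit with a log2 change of -0.44 and an adjusted p of 0.625. The number of reads behind values this low is unknown.

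The glypicans are heparan sulfate proteoglycans held to the membrane by a lipid anchor, from which they can be released. Gpc4 (minus strand of chromosome X, 52053021 to 52165252) was at 15.3, 14.5 and 12.6 TPM in Qk_KO replicates 1, 2 and 3, against 12.2, 10.7 and 11.8 TPM in Cont replicates 1, 2 and 3. The Qk_KO values were all above the Cont values, with means of 14.1 ± 1.4 TPM in Qk_KO and 11.6 ± 0.813 TPM in Cont (SD, n = 3 each). The log2 change was 0.26 (SE 0.116, 95% interval 0.0014 to 0.53; limma, adjusted p = 0.572). Gpc6, which shares with Gpc4 the recruitment of AMPA receptors, was at 4.65, 4.02 and 4.83 TPM in Qk_KO replicates 1, 2 and 3, against 5.33, 4.79 and 6.6 TPM in Cont replicates 1, 2 and 3. Its groups overlapped by a small margin (log2 change -0.25, 95% interval -0.61 to 0.11; adjusted p = 0.726), and the log2 change was -0.14 without Cont replicate 3.

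Gpc5, the most abundant of the listed glypicans, was at 21.1, 21.8 and 19.5 TPM in Qk_KO replicates 1, 2 and 3, against 25.8, 23.4 and 18.5 TPM in Cont replicates 1, 2 and 3. All Qk_KO values lay inside the Cont range (log2 change -0.10, 95% interval -0.39 to 0.19; limma, adjusted p = 0.884). The log2 change was -0.057 without Qk_KO replicate 3, -0.0005 without Cont replicate 1 and -0.23 without Cont replicate 3. Exons of Gpc5 are overlapped on the other strand by Gm20713, with the same limit as for Thbs1. Within the summed TPM of Gpc4, Gpc5 and Gpc6, Gpc4 took 37.2%, 36.0% and 34.1% in Qk_KO replicates 1, 2 and 3, against 28.2%, 27.4% and 32.0% in Cont replicates 1, 2 and 3. The Gpc4 share was above every Cont library in each Qk_KO library, with means of 35.7% ± 1.59 in Qk_KO and 29.2% ± 2.43 in Cont (SD, n = 3 each). An exact two-sided permutation test gave p = 0.1, the smallest possible. This share was added after the glypican values were seen and restates them, so it is not separate support for a difference in Gpc4.

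**Figure D2:**
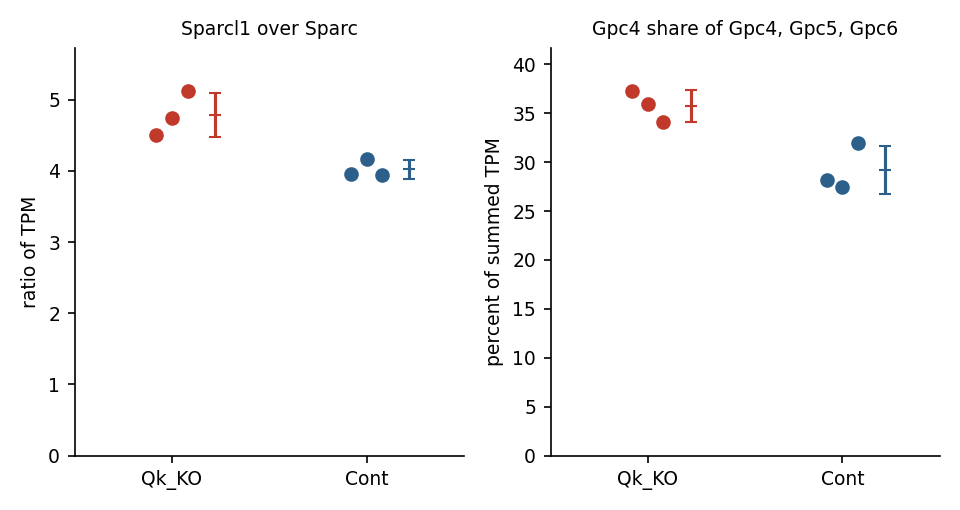
Left, Sparcl1 over Sparc as a ratio of TPM; right, the share of Gpc4 in the summed TPM of Gpc4, Gpc5 and Gpc6 in percent. Points are libraries (Qk_KO left, Cont right) and the bars beside them mean and SD (n = 3). In both panels all 3 Qk_KO points lie above the Cont points. Both quantities were chosen after the values were seen.

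The engulfment receptors did not pass either. Mertk, a receptor tyrosine kinase that recognizes phosphatidylserine through bridging proteins (plus strand of chromosome 2, 128698956 to 128802894), was at 4.26, 3.74 and 5.38 TPM in Qk_KO replicates 1, 2 and 3, against 6.6, 5.25 and 5.3 TPM in Cont replicates 1, 2 and 3. Qk_KO replicate 3 lay above Cont replicates 2 and 3, so the groups overlapped (log2 change -0.30, 95% interval -0.69 to 0.08; limma, adjusted p = 0.67). Megf10, an engulfment receptor with EGF-like repeats, was at 3.76, 2.98 and 3.21 TPM in Qk_KO replicates 1, 2 and 3, against 2.51, 2.77 and 3.15 TPM in Cont replicates 1, 2 and 3. Its groups overlapped as well (log2 change 0.18, 95% interval -0.21 to 0.57; adjusted p = 0.836), and the log2 change was 0.11 without Qk_KO replicate 1.

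**Figure D3:**
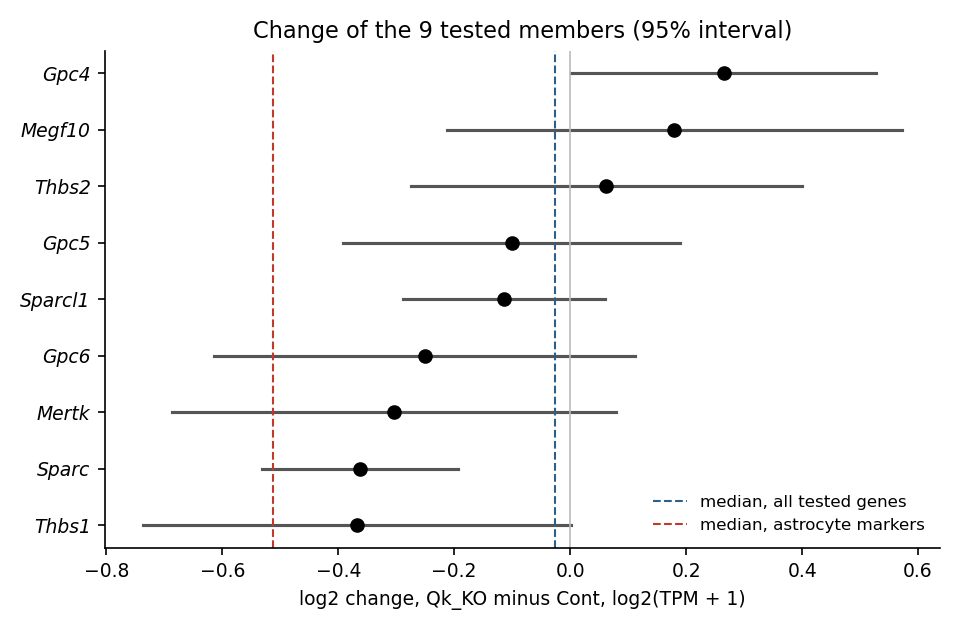
Log2 change, Qk_KO minus Cont on the log2(TPM + 1) scale, of the 9 tested members, with 95% intervals from limma. The blue dashed line is the median of all tested genes (-0.03) and the red one that of the 18 astrocyte markers (-0.51), whose own log2 changes ran from -1.29 to 0.47. The intervals of Sparc and Gpc4 leave out 0, before any adjustment for the number of genes tested.

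The members were also set against the astrocyte markers within each library, as log2(TPM + 1) of the member minus the mean of the 18 markers. That mean was 5.53, 5.41 and 5.48 in Qk_KO replicates 1, 2 and 3, against 5.96, 5.92 and 5.99 in Cont replicates 1, 2 and 3. Relative to it, Sparcl1 stood at 3.68, 3.75 and 3.88 in Qk_KO and 3.34, 3.43 and 3.43 in Cont, Sparc at 1.52, 1.51 and 1.53 in Qk_KO and 1.36, 1.38 and 1.46 in Cont, and Gpc4 at -1.51, -1.45 and -1.71 in Qk_KO and -2.23, -2.38 and -2.32 in Cont (replicates 1, 2 and 3). For 6 of the 9 tested members, these 3 with Thbs2, Gpc5 and Megf10, this relative level was higher in all Qk_KO than in all Cont libraries. The same was true of 76.1% of all tested genes, since the marker mean itself was lower in Qk_KO. The count therefore does not set the members apart. In bulk cortex this relative level is not a level per astrocyte, since other cells can hold the members' RNA.

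The genes around the members were read from 6 lists. Of 89 partner genes, 87 were tested and 0 passed the threshold with limma, where 0.387% of all tested genes did. At an unadjusted p under 0.05 there were 13, where 8.72% of all tested genes lay there.

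Of 14 paralogs of the members, 13 were tested and 0 passed (median log2 change -0.06). Spock2, a SPARC family proteoglycan, was at 253, 274 and 240.4 TPM in Qk_KO replicates 1, 2 and 3, against 285, 277 and 270.4 TPM in Cont replicates 1, 2 and 3 (adjusted p = 0.709). Gpc1, which lay above Gpc2 to Gpc6 in level, averaged 94.0 ± 8.24 TPM in Qk_KO and 107 ± 6.65 TPM in Cont (SD, n = 3 each). Its groups did not overlap (log2 change -0.18, limma adjusted p = 0.608), as in 3 of the 13 paralogs and 14.2% of all tested genes. Axl, a paralog of Mertk, was the 1 of 13 paralogs at an unadjusted p under 0.05, where 8.72% of all tested genes lay there. It was at 11.6, 10.8 and 11.1 TPM in Qk_KO and 15.8, 13.5 and 15.6 TPM in Cont replicates 1, 2 and 3 (log2 change -0.39, limma adjusted p = 0.288). Axl was picked after its values were seen.

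Of 22 neuronal receptors and partners of these factors, 0 were at an unadjusted p under 0.05, where 8.72% of all tested genes lay there. These genes did not pass either, with 0 of 22 past the threshold and a median log2 change of -0.03. They included the alpha2delta subunits that bind thrombospondins, the neurexins and neuroligins bridged by hevin, the receptor phosphatases that bind glypicans, and the AMPA receptor subunits. Ptprs, a receptor phosphatase, averaged 168 ± 2.28 TPM in Qk_KO and 177 ± 9.55 TPM in Cont, and Nrxn2, a neurexin, 209 ± 20.1 TPM in Qk_KO and 216 ± 5.65 TPM in Cont (SD, n = 3 each). Their adjusted p were 0.803 and 0.909 with limma. The 13 genes of heparan sulfate synthesis and sulfation, which build the sugar chains of glypicans, had 0 past the threshold and a median log2 change of -0.01. Hs3st1 was the 1 of them at an unadjusted p under 0.05, where 8.72% of all tested genes lay there. It averaged 62.8 ± 2.65 TPM in Qk_KO and 53.5 ± 3.5 TPM in Cont (limma adjusted p = 0.445). The groups did not overlap for 2 of the 13, both higher in Qk_KO, where 5.2% of all tested genes were. The sulfatase Sulf2 averaged 152 ± 5.27 TPM in Qk_KO and 159 ± 1.91 TPM in Cont, and the sulfotransferase Hs6st1 80.6 ± 12.97 TPM in Qk_KO and 83.2 ± 4.4 TPM in Cont (SD, n = 3 each). Their adjusted p were 0.858 and 0.933 with limma.

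Of 15 engulfment partners, 0 passed and 2 were at an unadjusted p under 0.05, Mfge8 and Dock1. The share of all tested genes at such a p was 8.72%. Mfge8, a secreted protein that links phosphatidylserine on a target to integrins on the engulfing cell, came nearest to the threshold of all partner genes. It was at 185, 192 and 174 TPM in Qk_KO replicates 1, 2 and 3, against 251, 238 and 275 TPM in Cont replicates 1, 2 and 3, with no overlap. Its log2 change was -0.47 (SE 0.0778, limma adjusted p = 0.0548), and it passed in 1 of 13 other settings, the one with a filter of 5 TPM on the mean (adjusted p = 0.0385; 0.0385 to 0.196 over all 13). Rac1, the small GTPase of the engulfing cell, averaged 313 ± 30.9 TPM in Qk_KO and 329 ± 13.6 TPM in Cont (adjusted p = 0.871). Gas6, which bridges to Mertk and was picked after its values were seen, averaged 83.1 ± 6.37 TPM in Qk_KO and 85.9 ± 5.65 TPM in Cont (adjusted p = 0.925; SD, n = 3 each).

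Of 8 genes of complement and microglial clearance 7 were tested and 0 passed, and the median log2 change was 0.08. At an unadjusted p under 0.05 there were 3 of the 7, C1qb, C1qc and Tyrobp, all with higher means in Qk_KO, where 8.72% of all tested genes lay there. C1qb, a subunit of complement C1q, was at 85.4, 88.4 and 93.4 TPM in Qk_KO replicates 1, 2 and 3, against 72.6, 84.1 and 68.2 TPM in Cont replicates 1, 2 and 3, without overlap (log2 change 0.25, limma adjusted p = 0.469). C1qc averaged 77.9 ± 12.4 TPM in Qk_KO and 62.7 ± 6.45 TPM in Cont (SD, n = 3 each), with overlap (adjusted p = 0.549). C1qa, a further C1q subunit picked after its values were seen, averaged 40.4 ± 4.6 TPM in Qk_KO and 38.1 ± 1.26 TPM in Cont. Its groups overlapped (log2 change 0.08, limma adjusted p = 0.88). Of the 7 log2 changes 2 were below 0, where 57.0% of all tested genes were. Tyrobp, a microglial signalling adaptor picked after its values were seen, lay at 46.2, 51.2 and 42.0 TPM in Qk_KO and 37.2, 37.4 and 35.1 TPM in Cont replicates 1, 2 and 3 (adjusted p = 0.286).

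The last partner list held other glial factors that act on synapses. Of 17 tested, 0 passed the threshold and 6 were at an unadjusted p under 0.05, where 8.72% of all tested genes lay there. The groups did not overlap for 7 of the 17, 6 lower and 1 higher in Qk_KO, where 14.2% of all tested genes did not overlap (8.98% lower and 5.2% higher), and the median log2 change was -0.10. The genes of highest level, Cst3 (2025 ± 166 TPM in Qk_KO, 2001 ± 174 TPM in Cont) and Apoe (1494 ± 172 TPM in Qk_KO, 1603 ± 134 TPM in Cont; SD, n = 3 each), had adjusted p of 0.976 and 0.841 with limma. The 6 at a low unadjusted p were named after their values were seen. Hapln1, a link protein of the extracellular matrix, was at 5.76, 5.33 and 6.61 TPM in Qk_KO replicates 1, 2 and 3, against 9.06, 9.8 and 9.75 TPM in Cont replicates 1, 2 and 3 (log2 change -0.61, adjusted p = 0.123). Tnc, the matrix glycoprotein tenascin-C, had a log2 change of -0.50 and Bcan, the proteoglycan brevican, of -0.28 (adjusted p = 0.18 and 0.302). Chrdl1, an astrocyte protein that promotes the switch of AMPA receptor subunits at maturing synapses, was at 3.67, 4.04 and 3.77 TPM in Qk_KO replicates 1, 2 and 3, against 6.74, 5.55 and 4.89 TPM in Cont replicates 1, 2 and 3 (log2 change -0.47, adjusted p = 0.412). Il33, a cytokine through which astrocytes prompt microglia to take up synapses, was at 0.51, 1.06 and 0.43 TPM in Qk_KO and 1.62, 1.94 and 1.93 TPM in Cont (log2 change -0.78, adjusted p = 0.364). Tgfb1, a growth factor, was the 1 gene of the 6 with higher values in Qk_KO (log2 change 0.26, adjusted p = 0.549).

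**Figure D4:**
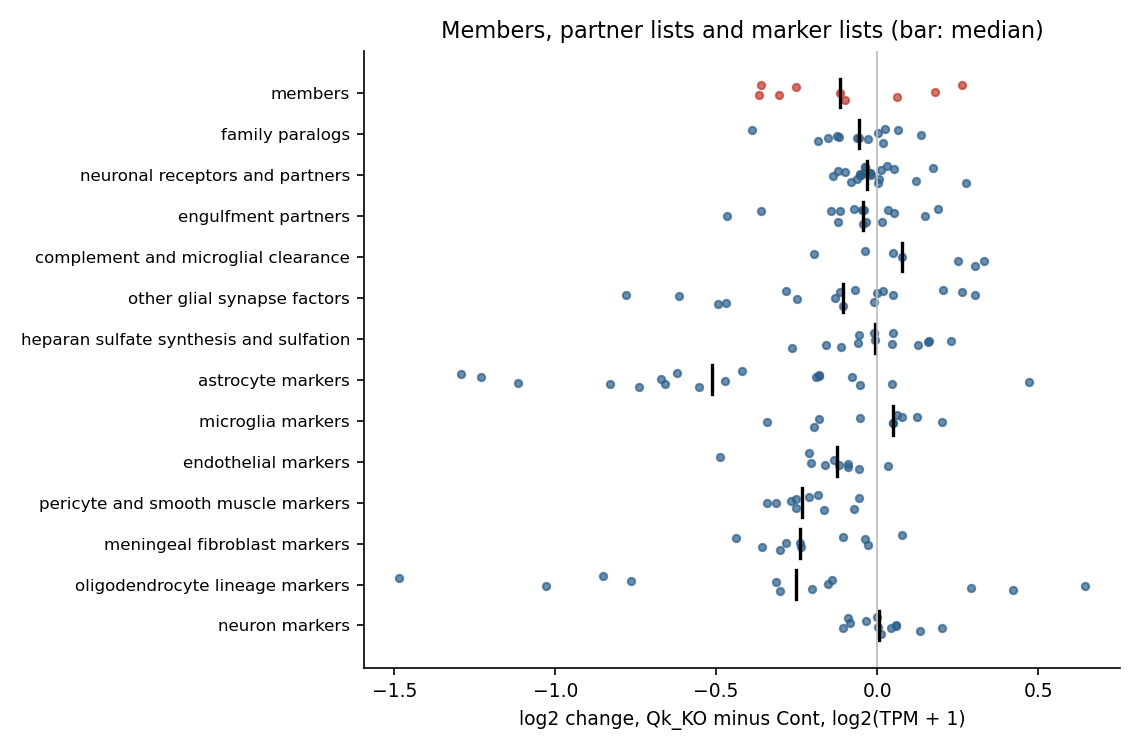
Log2 change, Qk_KO minus Cont on the log2(TPM + 1) scale, of each tested gene in the member list (red), the 6 partner lists and the 7 marker lists (blue); black bars are list medians. The member median is -0.11, the astrocyte marker median -0.51 and the neuron marker median 0.01.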

How the data were processed

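The deposited values are TPM made by the authors, 1 per gene and library, from polyadenylated RNA sequenced on the Ion Proton, per the labels' protocols. STAR 2.4.1d, RSEM 1.3.0 and builds mm10 and GRCm38.p4 are named in the submitters' processing notes, while annotation and strand setting are not given there. TPM divides by gene length and fixes the library total, so abundant genes that differ shift all others, and depth and counting error cannot be recovered.

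Groups and replicate numbers came from the titles. TPM were not rescaled. Genes averaging 1 TPM or more were fitted as log2(TPM + 1) in R 4.3.3 by limma 3.58.1 (lmFit, then eBayes using a trend) on group alone, with Benjamini-Hochberg adjustment over 14994 genes. The fit was tested on simulated data. Each library is a brain of its own per the series design, and the p-values rest on the spread among these brains. No library duplicated another: pairs shared the exact value of 50 to 75 tested genes.

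The members and all gene lists were chosen with earlier results of these data known. Named were the members, Qk, the genes past the threshold in each list (up to 4), the 2 partner genes of highest mean TPM where none passed, and the 3 genes most correlated with the member of smallest p; other names were chosen after their values were seen. The ratios within families and the levels relative to astrocyte markers were added after the values were seen. 3' UTRs were annotated for 92.0% of tested genes. Alternatives covered the pseudocount (0.1 and 0.5), the filter (none, or 5 TPM), median-of-ratios scaling, eBayes without trend, the replicate number as a block and each library left out. Protein sequences were not used here.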

Additional observations from a re-analysis of the deposited data

How the results depend on the processing

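Under 13 other settings (fewer where a filter removed a gene), 115 log2 changes of the 9 tested members were recomputed. Of these 114 kept their direction and none passed the threshold, with a lowest adjusted p of 0.102 (limma, Sparc with a filter of 5 TPM). Thbs2 turned sign without Cont replicate 2, at -0.028, and ranged from there to 0.14 with each library left out. The count of members past the threshold was 0 in every setting. Partner genes past the threshold numbered 1, Mfge8, with a filter of 5 TPM, and 0 in the other settings. The count of all genes past the threshold, 58, was 37 with no filter on low values, 28 with eBayes without trend, and 27 to 59 with each library left out, where fewer samples enter the fit. With the replicate number as a block it was 38. The correlation of deviations from the group means was 0.013 to 0.035 for same-numbered libraries and -0.042 to 0.0099 for the other pairs. All were near 0, with the same-numbered pairs highest, so these values do not settle whether the numbers pair the samples. Median-of-ratios scaling moved the median of all genes by under 0.1 on the log2 scale, -0.03 without scaling and 0.0017 with it, and flipped no member. For members of a few TPM the 95% intervals were wide (Megf10 -0.21 to 0.57), and differences inside them could not be resolved with 3 libraries per group.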
